A study of Rattus norvegicus with 2 samples.

Results

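The genes described here belong to the glutathione, metallothionein and antioxidant defence of cultured rat astrocytes. They are 39 genes listed by name with earlier results of these data known, so their counts beside all genes are descriptive only. The array reads 14218 genes through a probe set with a single gene symbol. Of the 39, 36 had such a probe set. The other 3, Prdx1, Fth1 and Ftl1, were read only by probe sets shared with other symbols and were given no value. Astrocytes, glia that feed and support neurons, came from the hippocampus of Sprague-Dawley rat embryos at embryonic day 18, with a normal genotype. The control culture expressed IRES2-RFP, a red fluorescent protein alone, and is described as having active calcium signalling. The 5ppase culture expressed 5ppase-IRES2-RFP, the same fluorescent protein together with 5ppase, and is described as having no such signalling. Each group is 1 culture hybridised to 1 single-colour Affymetrix array, so no value below has a replicate check, no test was possible, and every statement of higher or lower describes these 2 arrays only. The sources used here do not give the promoter of the vectors, the share of cells that carried them, or whether animals were pooled.

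Cells remove reactive oxygen through linked enzyme systems. Superoxide dismutases turn superoxide into hydrogen peroxide, which catalase, glutathione peroxidases and peroxiredoxins then break down, drawing on glutathione and thioredoxin that reductases recycle with NADPH. Nrf2, encoded by Nfe2l2, is a transcription factor that Keap1 holds at a low level until oxidants or electrophiles release it, after which it raises many of these genes through the antioxidant response element. Metallothioneins bind zinc and copper through their cysteines, and in the brain astrocytes are a main site of Nrf2 activity and the supplier of glutathione precursors to neurons.

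The signal of a gene is that of its brightest probe set, in arbitrary units, after both arrays were brought to a common trimmed mean. A gene counted as compared when it lay above a floor of 62.0 on both arrays and reached 208 on at least 1; the floor is the 40th percentile of all signals and not a detection call. Ratios are given as log2 of 5ppase over control, so positive values are higher in 5ppase. Among 1883 genes with 2 compared probe sets the spread of the log2 ratio between probe sets had an SD of 0.26. The pairs were split into 3 equal classes by the mean signal of their dimmer probe set. The spread was 0.33 in the dimmest class, which ended at a signal of 350, 0.24 in the middle and 0.18 in the brightest, whose signals exceeded 773. Genes are placed in these classes below by the mean signal of their brightest probe set, which is not the same measure. Such pairs show how far probes differ on the same RNA and say nothing of how cultures vary.

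The label of the cells was checked against markers. Of 9 astrocyte markers on the array 8 lay above the floor in control and 6 in 5ppase, and their summed signal was 42631 and 25051; the glutamate transporter Slc1a2 lay under the floor on both (24.1 and 25.7). None of the 5 endothelial markers lay above the floor on either array. The microglial sum was 1245 in control and 2540 in 5ppase, nearly all of it Tmem119 (1078 and 2273), with Itgam and Cx3cr1 under the floor. Smooth muscle and pericyte markers summed to 38394 and 53416, mostly through Acta2 (14268 and 21070) and Tagln (21879 and 28754). Myh11 (857 and 1937) and Cspg4 (262 and 629) were also higher in 5ppase. In that list Pdgfrb (1097 and 992) was slightly lower and Rgs5 was under the floor on both arrays. Ependymal and choroid plexus markers summed to 535 and 442. Fibroblast and meningeal markers summed to 84349 and 84743, mostly through Col1a1 (32792 and 32414), Col3a1 (25144 and 27757) and Fn1 (23487 and 23697). In that list Mgp (1902 and 199) and Pdgfra (1018 and 644) were lower in 5ppase, and Dcn and Lum were under the floor on both arrays. Neuron markers summed to 6710 and 13190, mostly through Stmn2 (3766 and 11065). Tubb3 (87.9 and 290) and the dim Syp (106 and 159) were also higher in 5ppase. Map2 (1737 and 1210) and Gad1 (998 and 422) were lower, and Rbfox3 and Snap25 were under the floor on both arrays. The oligodendrocyte sum of 1557 and 160 was mostly Cldn11 (1371 and 47.2), with Mog, Mobp, Sox10 and Olig1 under the floor on both arrays. In a bulk sample, fewer cells of a type and less RNA per cell cannot be told apart, and the part of these markers in the results below was not tested.

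Most antioxidant genes had nearly the same signal on both arrays. Of the 36 on the array 33 were compared, and 29 of these (87.9%) were less than 1.5-fold apart; over all 8261 compared genes the share was 89.3%. 4 genes stood apart by at least 2-fold, with none between 1.5-fold and 2-fold. The glutathione peroxidases Gpx3 and Gpx7 were higher in 5ppase, and the thioredoxin inhibitor Txnip and the metallothionein Mt3 were lower. Over all compared genes 1.5% were higher in 5ppase by 2-fold or more and 1.42% lower, 2.92% together. At 1.5-fold these shares were 5.25% and 5.46%, 10.7% together. A further gene, the aldo-keto reductase Akr1c15, was bright in 5ppase and under the floor in control, as were 0.145% of the genes that could be compared or bounded. Gsr was above the floor but too dim to be compared, and Gpx2 was under the floor on both arrays.

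The median log2 ratio of the 33 compared members was 0.081, beside -0.017 for all compared genes, and their quartiles were -0.01 and 0.16, beside -0.22 and 0.18. Under quantile normalization these medians were 0.047 and -0.007, after the loess trend was removed 0.043 and -0.004, and with a common median 0.05 and -0.048. Positive ratios were held by 23 of the 33 (69.7%) and by 47.9% of all compared genes, but with a common median, quantile normalization or removal of a loess trend the count was 21 of 33. Of the 33 ratios 23 (69.7%) were under the overall probe set spread of 0.26, as were 60% of all compared genes. Under the spread of their own signal class were 18 of the 33 (54.5%), and 53% of all compared genes. Most members fell in the signal class with the smallest spread, since 29 of the 33 had signals above 773. Of the 4306 compared genes in that range 94% lay within 1.5-fold, with a median of 0.0032, and of the 29 members 25 (86.2%) did. Ratios under 0.26 were held by 68.7% of these genes and 72.4% of the 29 members.

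**Figure D1:**
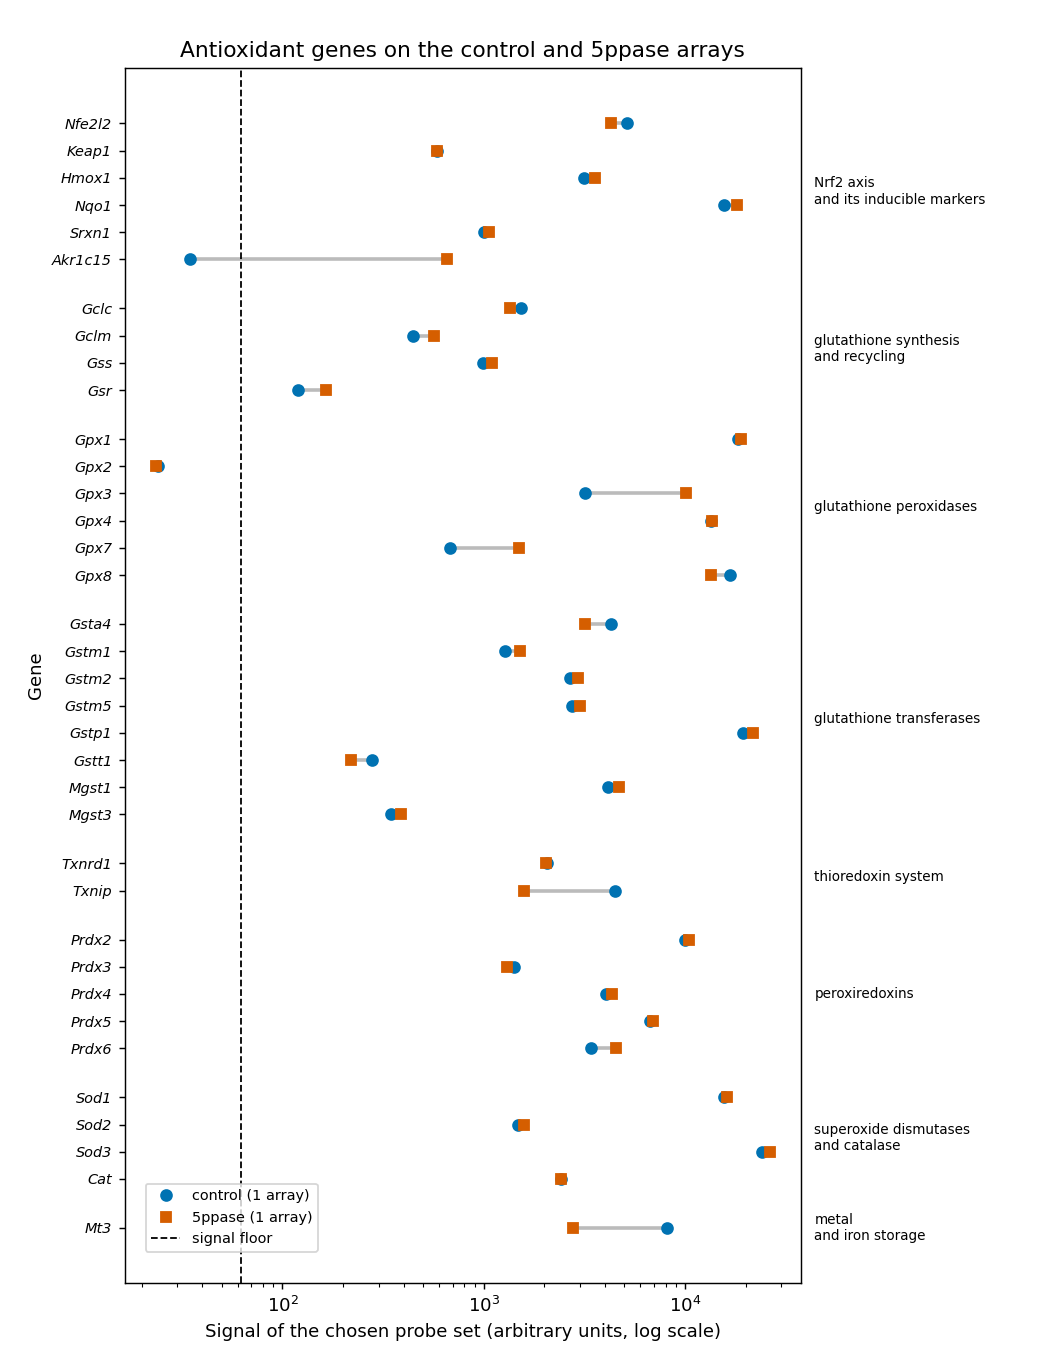
Signal of each antioxidant gene on the control array (blue circles) and the 5ppase array (orange squares), on a log axis in arbitrary units, grouped by function, with the floor of 62.0 as a dashed line and 1 array per group, so there are no error bars. Most pairs of points touch, whereas Akr1c15, Gpx3, Gpx7, Txnip and Mt3 are joined by long lines; Akr1c15 crosses the floor and Gpx2 lies under it on both arrays.

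The glutathione peroxidases, which reduce peroxides at the expense of glutathione or a protein thiol, split by member. Gpx3, the secreted form that circulates in plasma, gave 3185 in control against 10160 in 5ppase, 3.19-fold higher (log2 ratio 1.67). Only 0.182% of compared genes had a higher ratio, which placed it at rank 16 of 8261. Gpx7, which resides in the endoplasmic reticulum and takes part in oxidative protein folding, gave 678 and 1492 (log2 ratio 1.14, 2.2-fold), at rank 84. Both ratios exceed the spread of 0.18 in the brightest signal class, but each gene has a single probe set and so no second reading. Single pairs of probe sets can differ by more than that spread, as in the related gene Glrx2 at -0.10 and -1.07. The other peroxidase of the endoplasmic reticulum, Gpx8, pointed the other way at 16753 and 13395 (log2 ratio -0.32). Gpx1, the main cytosolic enzyme, was at 18352 and 18873 (log2 ratio 0.04). Gpx4, the enzyme that reduces lipid hydroperoxides in membranes, was at 13512 and 13635 (0.01). These last ratios are under the spread of 0.18, and both turned negative under quantile normalization and after removal of a loess trend. The epithelial form Gpx2 was under the floor, at 24.0 and 23.4.

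Neither Nrf2 nor its inhibitor differed by much at the brightest probe set, and the inducible genes Hmox1, Nqo1 and Srxn1 were within 1.5-fold. That statement is limited to these genes. Among the related genes described below, Slc7a11 (log2 ratio 0.86) and Gsta1 (0.77) were past 1.5-fold higher, whereas 67 of 77 stayed inside it and 3 were lower. Nfe2l2 was at 5164 in control against 4309 in 5ppase (log2 ratio -0.26). Keap1 gave 584 on both arrays at its brightest probe set, while a second probe set gave 327 and 193 (log2 ratio -0.76), so the probe sets of this gene disagree. Hmox1, heme oxygenase 1, which breaks down heme into biliverdin, iron and carbon monoxide, gave 3145 and 3591 (log2 ratio 0.19). Nqo1, a quinone reductase often used as a gauge of Nrf2 activity, gave 15552 and 18162 (log2 ratio 0.22). Srxn1, the sulfiredoxin that restores overoxidised peroxiredoxins, gave 1004 and 1061 (log2 ratio 0.08), and 414 and 508 (0.30) at a second probe set. The sign of Hmox1, Nqo1, Srxn1 and Nfe2l2 was the same under all 9 alternative settings in which each was compared. All but Srxn1 have 1 bright probe set, so floor and probe set alternatives could not move their ratios. The ratio of Srxn1 was under the spread of 0.18 in its signal class, and those of the other 3 were somewhat above it.

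Akr1c15, an aldo-keto reductase that reduces carbonyls and some steroids, was the 1 member read above the floor in 5ppase only. It gave 34.7 in control, under the floor, and 657 in 5ppase, so it was at least 10.6-fold higher in 5ppase; with the floor raised to the 60th percentile, 208, the bound was 3.15-fold. It had the brightest 5ppase signal of the 12 genes that were bright in 5ppase and under the floor in control. Its only probe set gives no internal repeat. Akr1c14, the neighbouring gene on chromosome 17 and a 3-alpha-hydroxysteroid dehydrogenase, is not one of the 39, but its 3 probe sets gave the same order. They read 54.0 and 196, 6.5 and 227, and 17.1 and 124, in control and 5ppase. All 3 lay under the floor in control, and the second of them reached 208 in 5ppase and gave a bound of at least 3.66-fold. Genes of this subfamily have similar sequences, and whether the probe sets tell them apart was not tested. Other relatives, Akr1c1 (4.4 and 3.7) and Akr1c3 (19.7 and 9.1), were under the floor on both arrays.

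The 250 bases before each gene's start were searched on both strands for the core of the antioxidant response element. This core was written as TGACNNNGC, in which N is any base. Sequences were taken from RefSeq on GRCr8, where 30 of the 39 genes had an entry. The core was present in 8 of the 30 (26.7%), beside 11% of all 27457 genes of the table and 10.1% of its 33469 promoters. The 8 were Akr1c15, Gclm, Gpx2, Gstm5, Gstp1, Prdx1, Sod2 and Txnrd1. Akr1c15 and Gstm5 held 2 matches each. The promoter of the glutathione transferase Gstp1 is printed beside that of Akr1c15 because it holds the core as well, although Gstp1 gave nearly equal signals. The matches are in capitals.

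Akr1c15 promoter, GRCr8 chr17:71117958-71118207, minus strand: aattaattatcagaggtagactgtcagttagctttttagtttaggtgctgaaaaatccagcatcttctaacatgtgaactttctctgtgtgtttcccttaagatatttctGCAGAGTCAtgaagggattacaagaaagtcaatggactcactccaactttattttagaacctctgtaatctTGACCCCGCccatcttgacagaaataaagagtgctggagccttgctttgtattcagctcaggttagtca

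Gstp1 promoter, GRCr8 chr1:210769706-210769955, minus strand: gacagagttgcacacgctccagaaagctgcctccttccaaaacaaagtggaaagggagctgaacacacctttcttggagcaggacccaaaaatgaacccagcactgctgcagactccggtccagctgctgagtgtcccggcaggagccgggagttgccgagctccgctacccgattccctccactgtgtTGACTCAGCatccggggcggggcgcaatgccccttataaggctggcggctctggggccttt

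In Akr1c15 the matches begin 140 bases before the start, on the opposite strand (TGACTCTGC), and 69 bases before it on the gene's strand (TGACCCCGC). In Gstp1 the match begins 61 bases before the start (TGACTCAGC). The log2 ratios of the compared genes with a match were 0.34 for Gclm, 0.13 for Gstm5, 0.16 for Gstp1, 0.10 for Sod2 and -0.01 for Txnrd1. All of these are within 1.5-fold, and Akr1c15 had only a bound. The part of the matches in these values was not tested. Gpx3 and Gpx7, the other higher members, held no match in this window, nor did Nqo1 or Srxn1, while Hmox1 and Txnip have no entry in the table and were not searched. A match is a run of letters and not a tested site. Bases farther upstream were not searched, so a gene without a match here may hold one there.

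Glutathione synthesis and recycling genes were within 1.5-fold. Gclc and Gclm encode the catalytic and modifier subunits of glutamate-cysteine ligase, the rate-limiting enzyme of glutathione synthesis, and they pointed apart. Gclc gave 1538 and 1355 (log2 ratio -0.18), with 1000 and 1003 at its second probe set (0.00). Gclm gave 446 and 566 (log2 ratio 0.34), outside the spread of 0.24 in its signal class, with no second probe set. Gss, glutathione synthetase, which completes the tripeptide, gave 990 and 1099 (0.15). Gsr, the reductase that regenerates glutathione with NADPH, gave 120 and 165 (0.46) and was below the level required on the brighter array.

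The 8 glutathione transferases, which join glutathione to electrophiles, were all compared and all within 1.5-fold, and 6 of them had small positive ratios. Gstp1 gave 19331 and 21655 (log2 ratio 0.16), Gstm1 1274 and 1514 (0.25), Gstm2 2669 and 2942 (0.14) and Gstm5 2744 and 3007 (0.13). The membrane-bound enzymes Mgst1, at 4146 and 4693 (0.18), and Mgst3, at 348 and 387 (0.15), were alike in this. The exceptions were Gsta4, which clears the lipid peroxidation product 4-hydroxynonenal, at 4310 and 3202 (-0.43), and Gstt1, at 277 and 218 (-0.34). The sign of each of the 8 was the same under every alternative in which it was compared. Each has 1 probe set, so alternatives of probe set choice could not alter these signs. Mu-class genes Gstm1, Gstm2 and Gstm5 belong to a cluster of similar sequences on chromosome 2, so their values may not be independent.

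Among thioredoxin genes the inhibitor differed and the reductase did not. Txnip, the thioredoxin-interacting protein, binds reduced thioredoxin and also restrains glucose uptake, and its transcript is known to follow glucose supply. It gave 4487 in control and 1592 in 5ppase, a log2 ratio of -1.5, or 2.82-fold lower. Of the 8261 compared genes 99.6% had a higher ratio, which placed Txnip at rank 33 from the bottom. Its ratio ran from -1.53 to -1.49 over the 9 alternatives that compared it. Txnip has 1 bright probe set, so floor and probe set alternatives could not move that ratio. Txnrd1, the cytosolic selenoenzyme that reduces thioredoxin, gave 2062 and 2048 (-0.01), and 773 and 826 (0.10) at a second probe set. Thioredoxin itself, Txn1, gave 21087 and 24777 (0.23).

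Peroxiredoxins, abundant thiol peroxidases that thioredoxin recharges, were close on both arrays. The cytosolic Prdx2 gave 10037 and 10445 (log2 ratio 0.06), the mitochondrial Prdx3 1413 and 1300 (-0.12), and Prdx4 of the endoplasmic reticulum 4056 and 4343 (0.10). Prdx5 gave 6724 and 6927 (0.04, negative under quantile normalization). Prdx6, which uses glutathione rather than thioredoxin and is prominent in astrocytes, was the outlying one at 3402 and 4553 (0.42, 1.34-fold). Only 9.42% of compared genes had a higher ratio than Prdx6, yet it was short of 1.5-fold.

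Superoxide dismutases and catalase hardly differed. Cytosolic Sod1 gave 15576 and 16144 (log2 ratio 0.05), mitochondrial Sod2 1486 and 1590 (0.10) and extracellular Sod3 24214 and 26464 (0.13). Catalase, Cat, gave 2415 and 2422 (0.00). All 4 ratios were under the spread between probe sets. That of Sod1 turned negative under quantile normalization and after the loess trend was removed, and that of Cat with a common median.

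**Figure D2:**
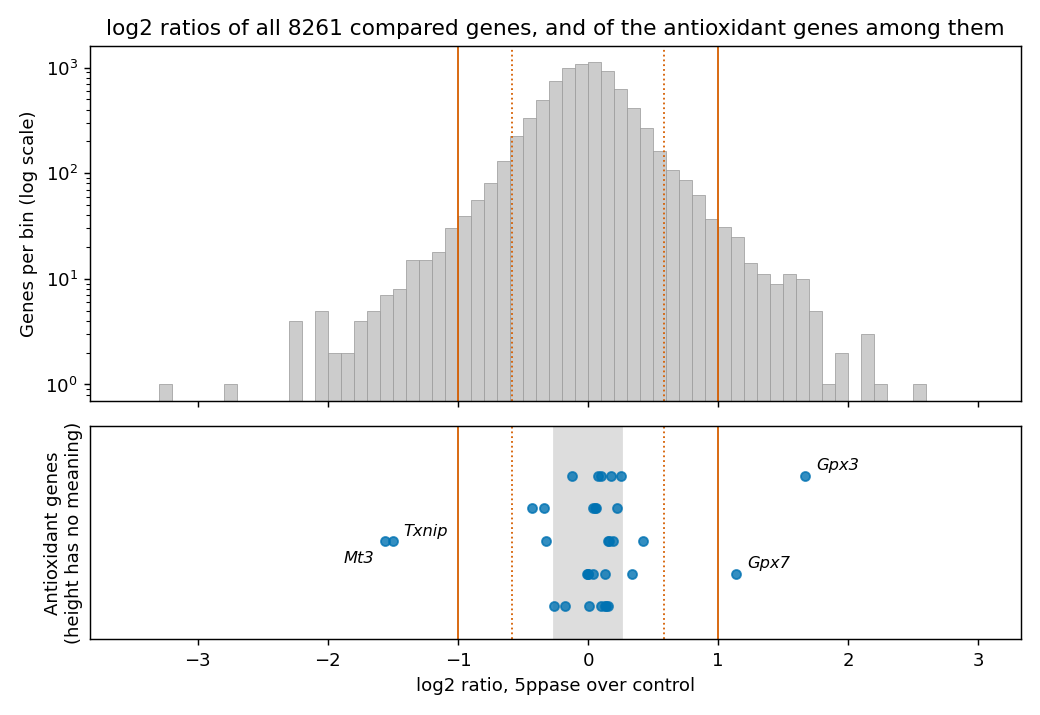
Top, number of genes (log axis) by log2 ratio of 5ppase over control for the 8261 compared genes in bins of 0.1; bottom, the 33 compared antioxidant genes on the same axis, with the grey band at the probe set spread of 0.26, dotted lines at 1.5-fold and solid lines at 2-fold. Gpx3 and Gpx7 lie past the upper 2-fold line, Txnip and Mt3 past the lower one, and the other 29 lie within the dotted lines.

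Mt3 had the lowest ratio of the compared members. It encodes the metallothionein first described as a growth inhibitory factor of brain, made largely by astrocytes and neurons. It gave 8151 in control and 2767 in 5ppase, a log2 ratio of -1.56, or 2.95-fold lower, which is rank 27 from the bottom of 8261 compared genes. Every one of the 9 alternatives that compared it gave between -1.59 and -1.56. Mt3 has 1 bright probe set, so floor and probe set alternatives could not move its ratio. Mt2A, its neighbour on chromosome 19 and the common stress-inducible form, gave 14154 and 10530 (log2 ratio -0.43, 1.34-fold lower), short of 1.5-fold. Mt1, the next gene of the cluster, was under the floor at 24.1 and 23.6. Some astrocyte markers were lower in 5ppase as well. Gfap, the astrocyte filament protein, gave 17525 and 7408 (-1.24) and Fabp7, a fatty acid carrier of immature astroglia, gave 5972 and 1486 (-2.01). Glul (-0.73), Slc1a3 (-0.60) and Aqp4 (432 and 25.1) were lower too. By contrast, S100b gave 3483 and 3611 (0.05) and Gja1 7282 and 7656 (0.07), and Aldh1l1 and Slc1a2 were too dim to be compared. The part of these markers in the value of Mt3 was not tested.

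Some metallothionein genes are induced through metal response elements, whose core was searched in the same window as TGCACNC or TGCGCNC. Whether Mt3 responds to metal was not tested. The core was present in 6 of 30 members (20%), beside 22.5% of all genes, which is no higher a share. Mt3 held 3 matches and Mt2A 4, whereas 1.17% of all promoters held 3 or more. Gsta4 also held 3, a pair of them overlapping, and Mt1, under the floor on both arrays, held 6. The promoters of Mt3 and Mt2A are printed because these adjacent genes hold matches to the same core and had log2 ratios of -1.56 and -0.43. The matches are not tested sites. Capitals mark the matches, and the last match of each, TGCGCGC, begins 51 bases before the start in Mt3 and 55 in Mt2A.

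Mt3 promoter, GRCr8 chr19:10856081-10856330, minus strand: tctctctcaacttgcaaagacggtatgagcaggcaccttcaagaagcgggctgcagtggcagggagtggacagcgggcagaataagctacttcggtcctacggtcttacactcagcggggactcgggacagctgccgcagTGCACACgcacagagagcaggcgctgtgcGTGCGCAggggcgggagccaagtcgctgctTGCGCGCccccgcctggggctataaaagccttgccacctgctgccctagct

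Mt2A promoter, GRCr8 chr19:10838709-10838958, minus strand: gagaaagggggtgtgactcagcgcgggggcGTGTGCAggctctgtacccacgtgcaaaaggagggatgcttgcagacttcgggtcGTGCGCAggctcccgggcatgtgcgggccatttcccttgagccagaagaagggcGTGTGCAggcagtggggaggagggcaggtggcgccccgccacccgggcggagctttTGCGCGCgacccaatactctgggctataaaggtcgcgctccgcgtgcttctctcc

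Of 115 other genes of these pathways, 108 were on the array and 77 were compared, with a median log2 ratio of 0.027. The 1.5-fold mark was passed by 7 in the higher direction and 3 in the lower, and 67 of 77 (87%) stayed inside it, again beside 89.3% of all compared genes. Selenop was the 1 gene past 2-fold. It encodes the secreted selenium carrier and gave 251 in control against 661 in 5ppase (log2 ratio 1.40), with 16.3 and 33.7, both under the floor, at its second probe set. Slc7a11, the cystine transporter that supplies cysteine for glutathione, gave 303 and 549 (0.86), while its partner chain Slc3a2 gave 13567 and 12969 (-0.07). Gsta1, an alpha-class glutathione transferase, gave 7485 and 12774 (0.77), in contrast to Gsta4. Lap3, an aminopeptidase, gave 325 and 495 (0.61).

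Metal transporters and an oxidase made up the rest of the higher genes. The zinc and iron importer Slc39a14 gave 543 and 900 (log2 ratio 0.73), but 124 and 88.8 at a dimmer second probe set that points the other way. The transferrin receptor Tfrc, which brings in iron, gave 1450 and 2300 (0.67) with 266 and 479 (0.85) at its second probe set. Nox4, an NADPH oxidase that makes hydrogen peroxide, gave 401 and 603 (0.59), just past 1.5-fold. On the lower side were the microsomal transferase Mgst2 at 932 and 491 (-0.92), the theta-class Gstt2 at 399 and 222 (-0.84) and Idh2, which makes NADPH in mitochondria, at 2479 and 1489 (-0.74). Gstt2 shares the theta class with Gstt1 above. Negative ratios were held by 4 of 7 compared genes in the list of other transferases and peroxidases, beside 4306 of all 8261 compared genes, a similar share. Genes of carbonyl and quinone detoxification were all within 1.5-fold, 15 of 15 compared, as were 12 of 13 Nrf2 partners and NADPH genes.

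**Figure D3:**
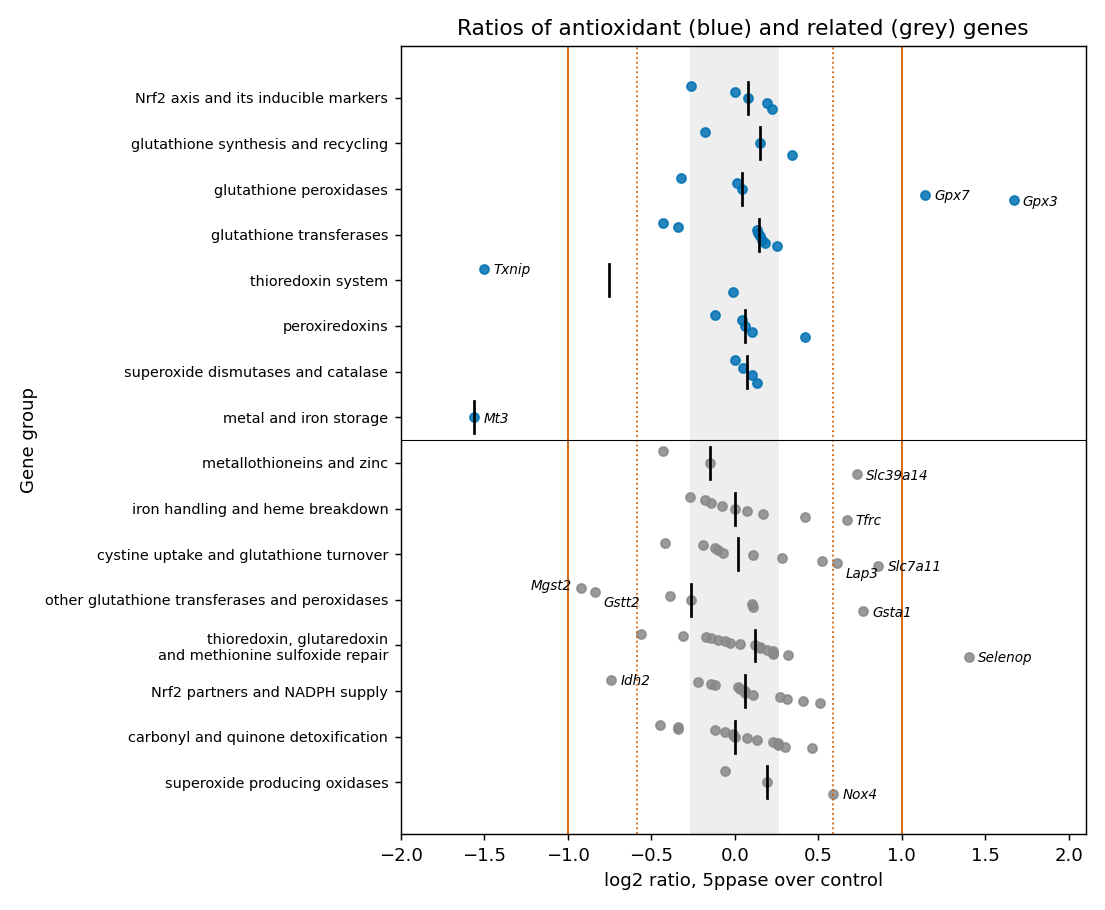
log2 ratio of 5ppase over control for each compared gene by function, the antioxidant genes in blue above the line and the related genes in grey below it; black ticks are group medians, the grey band is the probe set spread of 0.26, and dotted and solid lines mark 1.5-fold and 2-fold. Named points are those past 1.5-fold, and most groups have their median inside the grey band; the thioredoxin tick lies between its 2 genes and the metal and iron group holds Mt3 alone.

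Repeat readings within the arrays were few for the members. Only Keap1, Srxn1, Gclc and Txnrd1 had 2 compared probe sets, and none of the genes that differed by 2-fold was among them. The pairs of Srxn1, Gclc and Txnrd1 differed by at most 0.22 on the log2 scale, and that of Keap1 by 0.76. A second probe set of Gpx4, at 39.9 and 10.6, was under the floor on both arrays.

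**Figure D4:**
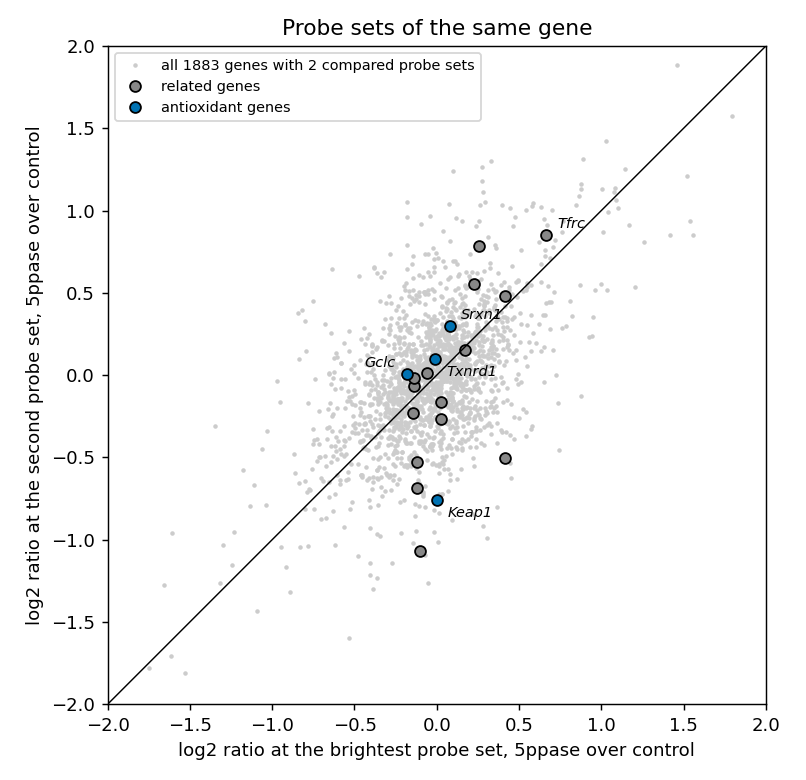
log2 ratio of 5ppase over control at the second against the brightest compared probe set of the same gene, for 1883 genes (small grey points), 15 related genes (large grey) and 4 antioxidant genes (blue), with the line of equality; 7 genes lie outside the axes. Srxn1, Gclc and Txnrd1 lie near 0 on both axes, Keap1 lies far under the line, and Tfrc lies near it in the upper right.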

How the data were processed

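RNA of 1 control and 1 5ppase culture was labelled with biotin and hybridised to single-colour arrays, per the labels' protocols. The authors deposited 1 linear-scale intensity per probe set and array; the submitters' processing notes name MAS5, and the sources used here give no version or settings of it. Both deposited columns have a trimmed mean of 500.2 (2% removed at each end), and 0 columns were left unused. Of 31099 probe sets 20832 carried 1 gene symbol in the platform annotation, which can be old, 436 carried several and 9831 were unlisted; the 36 members on the array all matched RefSeq by gene identifier. Signals under the floor were raised to it before log2, which understates ratios of dim genes. No test was run, since each group is 1 array. Python 3.11.15 and statsmodels 0.14.6 (loess span 0.3) were used, and the procedure was tested on simulated data.

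The members, lists, thresholds and rule were chosen with earlier results of these data known. The rule named every member, related genes at least 1.5-fold apart or with only a bound, and Mt1, Mt2A, Slc7a11 and Txn1; Akr1c1, Akr1c3, Akr1c14 and Slc3a2 were added after their values were seen. A further gene that the rule listed is not reported here. The 10 alternatives concern scaling, floor and probe set choice.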

Additional observations from a re-analysis of the deposited data

How the results depend on the processing

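The counts of members past 1.5-fold and 2-fold, 2 higher and 2 lower, changed little under scaling (as deposited, common median, quantile, loess), floors, a pseudocount, the mean of probe sets and removal of the _x_at and _s_at kinds, within 1.5 times. The members' median of 0.081 ranged from 0.043 (loess) to 0.089 (floor at the 25th percentile, or pseudocount). With second probe sets, available for 4 compared members, 0 were higher at 1.5-fold or 2-fold, 0 lower at 2-fold and 1 lower at 1.5-fold. Related genes past 1.5-fold, 7 higher and 3 lower, became 17 and 6 with a pseudocount of 6.4 and no filter, over 108 genes, and 2 higher with second probe sets, over 15. Of 298 member ratios 295 moved by less than 0.26, and 0 reversed a ratio past 1.5-fold. The 3 that moved further were Keap1 at -0.38 with the mean and -0.76 with the second probe set, and Gpx4 at -0.95 with the mean. Many of the 298 could not move. Most members have 1 probe set far above the floors, for which floor and probe set alternatives return the main ratio by construction. Under the same limit, 25 of 33 members kept their sign throughout. The bound of Akr1c15 was 3.15-fold with the floor at the 60th percentile and its ratio 18.9-fold with the floor at the 25th. No paired analysis was possible because each group has 1 array. The number of arrays limits the precision, and leaving out a replicate was not possible.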
